A study of Mus musculus with 13 samples.

Results

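Glomeruli collected 5 days after an injection of anti-THSD7A antibody were compared with glomeruli collected 1 day after the same injection, gene by gene. The comparison took the 4 day 5 and the 4 day 1 libraries, 8 of the 13 libraries of the series, and the 5 control libraries gave the level from which both days were read. Genes entered if 4 or more libraries listed them at a TPM of 1 or above, which held for 14322 of 35967 gene symbols. TPM are levels per transcript length, rescaled to a fixed total in each library.

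All mice were wild-type Balb/c animals given 2.0 mg of rabbit IgG intraperitoneally. Day 1 and day 5 mice received IgG against THSD7A, and control mice received preimmune IgG of the same species. According to the study's methods the antibody model used male mice, and glomeruli were taken out with magnetic beads after the kidney had been perfused and digested. Controls of both days formed a single group. The labels do not give the day of a control mouse, so time after injection and day of collection cannot be told apart between day 1 and day 5. Libraries are separate samples of a group by their labels, which name no batch and no animal, so p-values measure the spread between these samples. The injected antibody binds without any immune response of the mouse against its own podocytes, which limits the model to the phase after binding.

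THSD7A is a membrane protein of the podocyte foot process and an autoantigen in membranous nephropathy. Podocytes are mature cells that have left the cell cycle and are held there by cyclin-dependent kinase (CDK) inhibitors, whereas mesangial, endothelial and parietal cells of the glomerulus can divide. A dividing cell first switches on genes for DNA replication (S phase) under E2F factors, and later genes for chromosome condensation, spindle and cytokinesis (G2 and M phases), whose promoters often carry a CHR element and CCAAT boxes. Isolated glomeruli usually hold some attached tubule, and whole-tissue RNA cannot tell fewer cells of a type from less RNA per cell.

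Because G2 and M phase genes moved together between the days, promoter windows of 3 of them are shown first, followed by an S phase gene with E2F sites and by *Col5a3*, the matrix gene with the largest rise. Each sequence is the 250 bases upstream of the RefSeq start of the gene in GRCm38.p6, read 5′ to 3′ on the gene's strand, and capitals mark matches on either strand. A CHR element was searched as TTTGAA and a CCAAT box by its own letters. An E2F site was searched as TTCCCGC, and also in the form TTGGCGC. Capitals of neighbouring or overlapping matches run together, and an E2F site preceded by A shares letters with a reversed CCAAT box.
Ube2c, chr2:164769679-164769928, plus strand: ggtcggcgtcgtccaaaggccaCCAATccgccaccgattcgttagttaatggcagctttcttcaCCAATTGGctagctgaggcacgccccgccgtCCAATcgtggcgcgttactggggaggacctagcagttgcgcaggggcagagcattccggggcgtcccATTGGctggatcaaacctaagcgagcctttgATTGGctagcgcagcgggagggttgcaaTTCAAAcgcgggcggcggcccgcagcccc
Ccnb2, chr9:70421555-70421804, minus strand: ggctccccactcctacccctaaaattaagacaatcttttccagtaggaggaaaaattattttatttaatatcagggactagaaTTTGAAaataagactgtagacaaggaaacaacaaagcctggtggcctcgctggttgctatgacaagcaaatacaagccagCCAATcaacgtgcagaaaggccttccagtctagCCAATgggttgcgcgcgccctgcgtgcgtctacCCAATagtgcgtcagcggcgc
Cdk1, chr10:69352913-69353162, minus strand: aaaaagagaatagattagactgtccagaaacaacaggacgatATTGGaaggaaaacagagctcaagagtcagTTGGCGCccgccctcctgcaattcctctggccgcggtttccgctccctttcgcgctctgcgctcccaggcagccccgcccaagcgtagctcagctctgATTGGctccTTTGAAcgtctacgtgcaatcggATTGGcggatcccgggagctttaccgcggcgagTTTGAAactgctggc
Mcm6, chr1:128359706-128359955, minus strand: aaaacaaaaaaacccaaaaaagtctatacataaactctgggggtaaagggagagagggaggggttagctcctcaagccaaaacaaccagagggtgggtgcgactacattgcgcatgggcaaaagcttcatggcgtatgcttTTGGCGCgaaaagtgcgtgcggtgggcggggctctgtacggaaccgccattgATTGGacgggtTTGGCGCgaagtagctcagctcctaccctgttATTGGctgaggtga
Col5a3, chr9:20815068-20815317, minus strand: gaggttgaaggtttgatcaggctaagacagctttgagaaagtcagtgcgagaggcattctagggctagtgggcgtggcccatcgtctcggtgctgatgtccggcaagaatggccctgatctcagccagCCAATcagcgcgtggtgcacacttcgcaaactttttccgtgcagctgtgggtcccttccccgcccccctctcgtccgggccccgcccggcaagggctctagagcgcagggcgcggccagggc
The *Ube2c* window held 1 CHR element and 6 CCAAT boxes, that of *Ccnb2* held 1 and 3, and that of *Cdk1* held 2 and 3, with 1 E2F site. The *Mcm6* window held no CHR element, 2 CCAAT boxes and 2 E2F sites, and that of *Col5a3* held 1 CCAAT box alone. RefSeq windows from 250 bases before to 50 after the start were matched for 10683 of the 14322 tested genes, 152 of the 202 genes called higher at day 5, 40 of the 57 called lower and 72 of the 86 tested G2 and M phase genes. The CHR letters stood in 12.3% of the 13655 windows of tested genes, in 38.3% of the 175 windows of genes called higher, in 8% of the 50 windows of genes called lower and in 61.7% of the 81 G2 and M phase windows. E2F letters stood in 11.4% of all windows, in 27.4% of those of genes called higher and in 49.1% of the 57 windows of S phase genes. The AP-1 letters TGACTCA stood in 3.84% of all windows and in 2.86% of those called higher. These shares describe letters only, and binding was not measured.

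The libraries had a glomerular profile at both days. All 52 podocyte markers with a row were tested, and their summed TPM lay between 18899 and 22741 at day 1 and between 20242 and 20917 at day 5. Rank correlations of all tested genes lay between 0.980 and 0.986 among day 1 libraries, between 0.982 and 0.987 among day 5 libraries and between 0.975 and 0.985 across the days. The summed TPM of 36 proximal tubule markers differed more. It was 11926, 11846, 7572 and 10882 in day 1 replicates 1 to 4, against 5692, 5385, 6270.4 and 5848 at day 5. Control replicate 5 stood apart from its group at 13525, the other controls lying between 4649 and 6825. The read depth of the libraries is unknown, because TPM keep no depth.

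At day 5, 202 genes were higher and 57 were lower than at day 1, 259 in all. A call required an adjusted p under 0.05 (limma over all 13 libraries, Benjamini-Hochberg adjustment) and a log2 difference above 0.5 in size. The calls were 1.81% of the tested genes, with 1.41% called higher and 0.398% called lower. In 258 of the 259 called genes the scaled TPM of the 4 day 5 libraries did not overlap with the 4 day 1 libraries. Over all tested genes, such separation was found in 5.3% in the higher and 5.25% in the lower direction. The median difference of all genes was 0.00. Before adjustment, p was under 0.05 for 2226 genes (15.5%). All log2 differences were taken after 0.5 had been added to the scaled TPM, which makes the change of weakly expressed genes look smaller than it was.

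**Figure D1:**
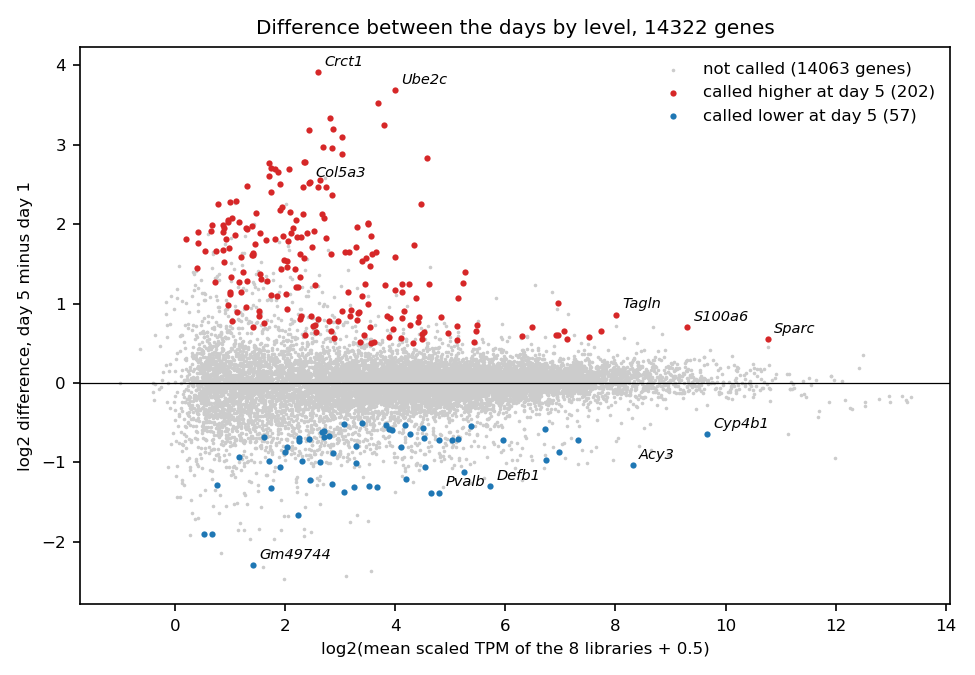
Log2 difference between day 5 and day 1 (vertical axis, log2 units) against the mean level of the 8 libraries (horizontal axis, log2 of scaled TPM + 0.5), with 1 point per tested gene. The 202 genes called higher (red) reach a difference of 3.91 and mostly have low levels, whereas the 57 called lower (blue) reach -2.29.

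Genes that rose mostly lay near control level on day 1. Over the 202 genes the median log2 difference was -0.04 between day 1 and control, 1.45 between day 5 and control and 1.47 between the days. For 200 of them day 5 lay farther from control than day 1, and 183 were also called at day 5 against control. The contrasts share libraries, so this order is a description. Of the 202 genes, 57 passed the filter on low TPM only with the day 5 libraries and therefore had to be high there, and 115 reached a TPM of 1 in all 13 libraries.

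Of the genes that rose, 89 of 202 stood in the S phase list or the G2 and M phase list, and 91 stood in none of the 39 lists. Of 86 G2 and M phase genes, 68 rose (79.1%, against 1.41% of all tested genes) and none fell. Their median log2 difference was 1.86, and 85 of the 86 were above 0. Because 26 of these genes passed the filter only with day 5 libraries, the 40 members at a TPM of 1 or above in all 13 libraries were also counted, and 29 of them rose. The summed TPM of the list was 937, 893, 868 and 891 in day 1 replicates 1 to 4 and 1565, 1665, 1899.5 and 1387 in day 5 replicates 1 to 4. Control libraries lay between 817 and 947, so the day 1 and control ranges overlapped and all day 5 libraries were above both.

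*Ube2c* encodes the E2 ubiquitin-conjugating enzyme that works with the anaphase-promoting complex, and occupies positions 164611768 to 164620742 of chromosome 2 in GRCm39. Its level was 2.12, 1.52, 0.714 and 2.91 in day 1 replicates 1 to 4 and 26.4, 31.9, 40.3 and 17.0 TPM at day 5. All day 5 libraries were above all day 1 libraries, and controls lay between 1.56 and 4.09. The log2 difference was 3.69 (standard error 0.33, adjusted p = 5.89e-05, limma). *Ccnb2*, a cyclin B that activates CDK1 at mitotic entry (chromosome 9, 70314966 to 70328874), had TPM of 0.784, 0.702, 0.492 and 0.913 at day 1 and 11.5, 14.2, 16.3 and 7.30 at day 5. Its log2 difference was 3.34 (standard error 0.27, adjusted p = 4.27e-05, limma). *Cdk1*, the mitotic kinase itself (chromosome 10, 69170976 to 69236595), had the highest levels of the trio. Its TPM was 7.12, 2.44, 4.19 and 9.38 at day 1 and 38.4, 45.0, 44.0 and 35.0 at day 5, a log2 difference of 2.84 (standard error 0.32, adjusted p = 2.35e-04, limma). The groups of both genes were fully separate.

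Spindle and cytokinesis genes rose in the same way. *Prc1*, which bundles microtubules of the central spindle, rose by 3.25 on the log2 scale, from TPM of 1.48 to 3.04 at day 1 to 15.4 to 32.0 at day 5. *Anln*, an actin-binding protein of the cleavage furrow, rose by 2.96, and *Birc5*, the survivin subunit of the chromosomal passenger complex, rose by 2.88. *Tpx2* and *Nusap1*, which organise spindle microtubules, both rose by 2.47. The mitosis-associated genes *Pimreg* (3.52), *Pbk* (3.20), a mitotic kinase, and *Ckap2* (3.19), a cytoskeleton-associated protein, were among the largest rises of all genes tested. *Ccna2*, the cyclin A of S and G2 phases, rose by 3.10. Its TPM was 1.05, 1.01, 0.950 and 1.85 at day 1 and 11.01, 14.99, 18.8 and 12.01 at day 5. *Mki67*, the Ki-67 proliferation marker (chromosome 7, 135291513 to 135318299), had TPM of 1.37, 0.771, 0.594 and 1.03 at day 1 and 8.89, 11.9, 15.3 and 7.87 at day 5. Controls of *Mki67* lay between 0.475 and 1.86, a range that holds all day 1 values, and the log2 difference was 2.98 (standard error 0.28, adjusted p = 7.09e-05, limma).

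**Figure D2:**
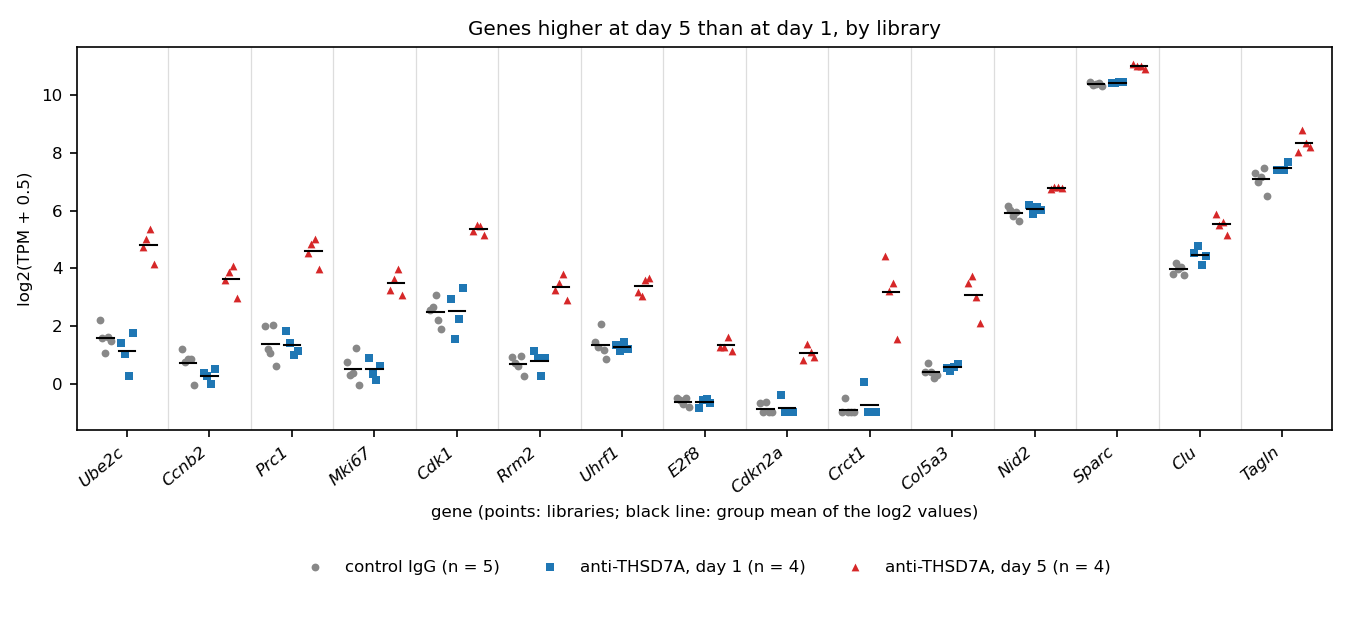
Levels of 15 genes called higher at day 5 (vertical axis, log2 of TPM + 0.5), with 1 point per library for control, day 1 and day 5 mice and a black line at each group mean. Day 5 points lie above all day 1 points for each gene shown, while day 1 points of most genes lie among the controls, as for *Mki67*.

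S phase genes rose less and fewer of them passed. Of 58 tested, 21 rose (36.2%, against 1.41% of all tested genes) and none fell. Their median log2 difference was 0.50, and 57 of the 58 were above 0. All but 2 of the 21, namely *Cdc6* and *Dtl*, passed the filter without the day 5 libraries. *Rrm2*, the regulated subunit of ribonucleotide reductase, had TPM of 1.67, 1.35, 0.709 and 1.34 at day 1 and 8.99, 10.7, 13.3 and 7.02 at day 5, and its log2 difference of 2.56 was the largest of the list (standard error 0.23, adjusted p = 6.38e-05, limma). *Uhrf1*, which maintains DNA methylation behind the replication fork, rose by 2.08, *Cdc6*, a loader of the replicative helicase, by 1.86, and *Clspn*, a replication checkpoint adaptor, by 1.80. *Dtl*, which marks CDT1 for destruction, rose by 1.61. *Tk1*, the thymidine salvage kinase, rose by 1.24, from TPM of 9.06 to 10.2 at day 1 to 21.6 to 29.1 at day 5. *Mcm6*, a helicase subunit chosen for its promoter after its values were seen, had TPM of 7.84, 2.97, 2.45 and 5.93 at day 1 and 13.2, 12.98, 22.4 and 22.3 at day 5. Its rise of 1.86 (adjusted p = 0.0133, limma) had a wide standard error of 0.36 and passed in 10 of 13 fits that left out 1 library each.

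The day 5 libraries did not rank alike in both phases. Among the 68 G2 and M phase genes that rose, day 5 replicate 4 was the lowest of the 4 libraries for 55 genes and replicate 3 the highest for 54. Among the 21 S phase genes, replicate 2 was the lowest for 15, and replicate 4 was the highest for 10. *Mcm6* was lowest in replicate 2, and *Dtl*, at 2.07, 2.80, 4.71 and 4.77 TPM in replicates 1 to 4, was an exception with its lowest value in replicate 1. Each replicate is 1 mouse, so these counts describe single mice and were not tested.

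**Figure D3:**
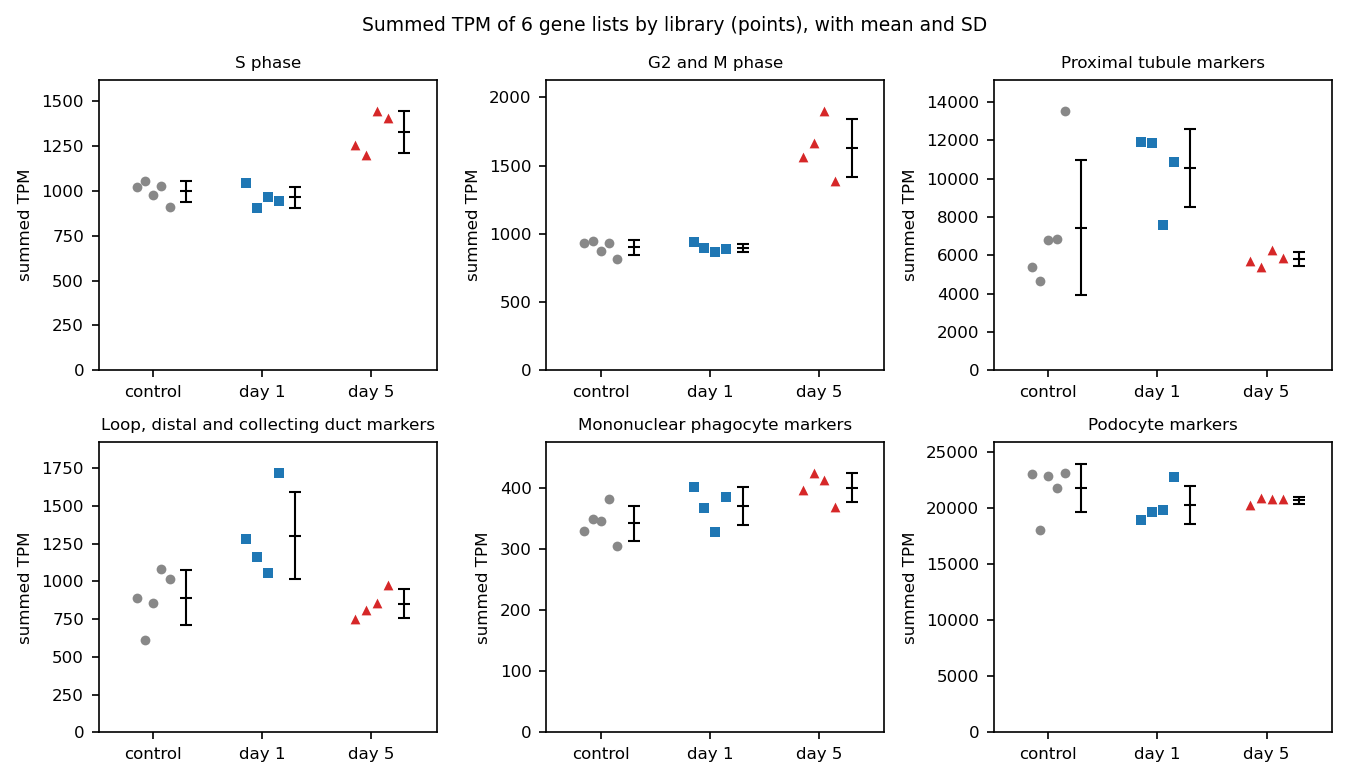
Summed TPM of 6 gene lists (vertical axes, from 0), with 1 point per library by group and the mean with SD beside the points. The S phase and the G2 and M phase sums are higher in all 4 day 5 libraries than in any other library, whereas both tubule sums are higher in the 4 day 1 libraries than in the 4 day 5 libraries and podocyte and phagocyte sums overlap between the days.

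DNA repair and checkpoint genes were among the rises. Of 34 genes of the Fanconi pathway and homologous recombination, 7 rose (20.6%, against 1.41% of all genes) and none fell, with a median of 0.40. None of the 7 reached a TPM of 1 in all 13 libraries, and 4 passed the filter only with day 5 libraries. *Exo1*, a nuclease that resects DNA ends, rose by 1.96, and *Ube2t*, the E2 enzyme of the Fanconi pathway, by 1.88. *Rad54b* (1.59), a DNA translocase of homologous recombination, *Eme1* (1.45), a subunit of a junction-cutting nuclease, and *Brca1* (1.27) followed. The TPM of *Brca1* was 0.597, 0.287, 0.698 and 0.304 at day 1 and 1.39, 1.57, 2.47 and 1.96 at day 5. With a score of tubular markers as a covariate *Ube2t* and *Eme1* kept their calls. *Exo1*, *Rad54b* and *Brca1* did not (adjusted p between 0.0747 and 0.227, limma). No gene of the p53 target list was called by limma, 4 of 26 had an unadjusted p under 0.05 against 15.5% of all genes, and their median was 0.07. Targets of p53 outside that list were not counted.

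CDK inhibitors and the retinoblastoma family moved in part, with 4 of 22 members higher (18.2%, against 1.41% of all tested genes) and none lower. Of these 4, *E2f8* and *Cdkn2a* passed the filter on low TPM only with the day 5 libraries and therefore had to be high there. *E2f8*, a repressor of the E2F family, rose by 1.99 (standard error 0.23, adjusted p = 2.76e-04, limma), with 0.0540 to 0.190 TPM at day 1 and at least 1.71 TPM in each day 5 library. *Cdkn2a* (chromosome 4, 89192708 to 89212890) encodes p16 and, in another frame, p19ARF, and 1 symbol covers both. It was listed at 0.263, 0, 0 and 0 at day 1 and at 1.25, 2.12, 1.66 and 1.39 at day 5, and 3 of the 5 control libraries were listed at 0. Its fitted difference of 1.91 (adjusted p = 0.00147, limma) depends on the added 0.5. *Cdkn2c*, which encodes p18, rose by 1.06, from 12.7, 13.2, 10.6 and 14.3 TPM to 23.0, 31.6, 34.4 and 21.7 TPM. *Cdkn2d*, which encodes p19INK4d, rose by 0.55, but its groups overlapped once scaled and it passed in 7 of 13 fits that left out 1 library each. With the score of tubular markers as a covariate *E2f8* kept its call. *Cdkn2a*, *Cdkn2c* and *Cdkn2d* did not (adjusted p between 0.0507 and 0.258, limma). *Cdkn1c*, which encodes p57, the inhibitor that marks mature podocytes, was singled out after its values were seen. Its TPM was 1441, 1324, 1589 and 1448 at day 1 and 1867, 2243, 1895 and 1985 at day 5. The groups were separate, but the log2 difference of 0.45 (standard error 0.10, adjusted p = 0.0400, limma) stayed under the 0.5 needed for a call.

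No podocyte marker was called between the days by limma, and 10 of 52 had an unadjusted p under 0.05, against 15.5% of all genes. Of these 52 markers 26 lay above and 26 below 0, and the median was 0.00. *Dag1*, which encodes dystroglycan, a laminin receptor of the podocyte base, had the lowest p of the list. Its TPM was 291, 285, 286 and 332 at day 1 and 417, 428, 394 and 358 at day 5, a difference of 0.41 (standard error 0.09, adjusted p = 0.0219, limma), under the size needed for a call. *Thsd7a*, the target of the injected antibody (chromosome 6, 12311609 to 12749439), had TPM of 106, 112, 126 and 154 at day 1 and 77.3, 93.2, 106 and 113 at day 5. These ranges overlapped, and the difference of -0.36 missed the threshold (limma, standard error 0.17, adjusted p = 0.331). Controls of *Thsd7a* lay between 116 and 206 TPM. Against control its difference was -0.42 at day 1, not called, and -0.79 at day 5, called (adjusted p = 0.0112, limma). No gene of podocyte polarity and adhesion was called by limma either, 13 of 39 had an unadjusted p under 0.05 against the same 15.5%, and their median was 0.07.

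Matrix genes rose at day 5 in small number and over a wide range of levels. Of 39 interstitial and matricellular genes 3 rose, of 32 metalloproteinases and their inhibitors 3, of 20 collagen-modifying enzymes 2, and of 26 basement membrane genes 1, and none of these lists had a member that fell. These shares were 7.69%, 9.38%, 10% and 3.85%, against 1.41% of all tested genes called higher. The medians of the lists were 0.22, 0.27, 0.12 and 0.28, and 25 of the 26 basement membrane genes lay above 0. *Col5a3*, 1 of the 3 interstitial genes, passed the filter on low TPM only with the day 5 libraries and therefore had to be high there. With a score of tubular markers as a covariate, *Col5a3*, *Sparc* and *Nid2* kept their calls, and the other 6, namely *Col5a2*, *Plod2*, *Lox*, *Adamts1*, *Adamts9* and *Adam12*, did not (adjusted p between 0.056 and 0.452, limma). In that fit the differences of *Plod2* (0.64), *Lox* (0.76) and *Adamts9* (0.72) were larger than without the score. Those of *Col5a2* (0.32), *Adamts1* (0.46) and *Adam12* (0.52) were smaller. *Col5a3*, a chain of the fibril-regulating collagen V (chromosome 9, 20681337 to 20726418), had TPM of 0.970, 0.848, 0.973 and 1.11 at day 1 and 10.6, 12.9, 7.59 and 3.77 at day 5. The day 1 values lay among the controls at 0.640 to 1.13, the day 5 values were well above, and the difference was 2.52 (standard error 0.30, adjusted p = 3.04e-04, limma). *Sparc*, a matricellular protein that binds collagen (chromosome 11, 55285317 to 55314067), had the highest level of all rising genes. Its TPM was 1377, 1387, 1406 and 1409 at day 1 and 2159, 2079.8, 2078 and 1924 at day 5, a difference of 0.55 (standard error 0.06, adjusted p = 1.38e-04, limma).

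*Nid2*, a nidogen that links laminin to collagen IV (chromosome 14, 19801298 to 19861855), had TPM of 73.6, 58.8, 70.1 and 65.3 at day 1 and 107, 112, 113 and 109 at day 5. The day 5 libraries were close together and above all others, with a difference of 0.71 (standard error 0.09, adjusted p = 5.32e-04, limma). *Adamts1*, a protease that cuts proteoglycans, rose by 0.65, from 147 to 201 TPM at day 1 to 252 to 262 TPM at day 5. *Adamts9* (0.58), of the same family, and *Adam12* (0.68), a membrane-bound metalloproteinase, also rose, and each passed in 8 of 13 fits that left out 1 library each. *Adamts9* was already above the controls at day 1, with TPM of 9.81 to 12.5 against 6.57 to 8.71 and no call for that difference (adjusted p = 0.0982, limma), and reached 15.8 to 18.7 at day 5. *Plod2*, a lysyl hydroxylase of collagen, and *Lox*, which crosslinks it, rose by 0.60 and 0.70, but passed in only 4 and 3 of 13 such fits. *Col5a2* rose by 0.57 and passed in 10 of them.

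*Tagln*, a smooth muscle actin-binding protein found in activated mesangial cells, passed alone among 29 mesangial and contractile genes (3.45%, against 1.81% of all genes). Its TPM was 168, 172, 169.8 and 208 at day 1 and 262, 447, 327 and 299 at day 5 (difference 0.86, standard error 0.19, adjusted p = 0.0270, limma), and it passed in 8 of 13 fits that left out 1 library each. *Clu*, the secreted chaperone clusterin (chromosome 14, 66190200 to 66218999), was the only gene to pass among 20 complement genes (5%), and again among 9 tubular injury genes (11.1%). The share over all genes was 1.81%, and *Clu* stands in both lists. It rose from 22.8, 26.7, 16.8 and 21.1 TPM to 58.6, 45.2, 48.0 and 35.2 TPM, by 1.07 on the log2 scale (standard error 0.17, adjusted p = 0.00278, limma). Of its day 1 values 3 lay above the control range of 13.2 to 17.8. With the tubular score as a covariate its difference was 1.02 and was not called (adjusted p = 0.0787, limma). *Masp2*, a complement protease gene that the complement list did not hold, was called lower (-0.93, adjusted p = 0.0376, limma) and was picked after its values were seen. Its mean TPM was 2.39 at day 1 and 1.03 at day 5. *Crct1*, a cysteine-rich C-terminal protein gene of the epidermal differentiation complex (chromosome 3, 92921508 to 92923001), had the largest fitted rise of all, 3.91 (standard error 0.49, adjusted p = 4.74e-04, limma), a size that depends on the added 0.5. It was listed at 0.549, 0, 0 and 0 at day 1 and at 21.0, 8.85, 10.9 and 2.42 at day 5, and at 0 in 4 of 5 controls. *Crct1* passed the filter on low TPM only with the day 5 libraries and therefore had to be high there. *S100a6*, a calcium-binding protein, rose by 0.71, from TPM of 435 to 489 at day 1 to 628 to 966 at day 5, and *Atp13a3*, a polyamine transporter, rose by 0.58.

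Several of the 91 rising genes outside the lists have known cell cycle roles and were picked after their values were seen. *Mxd3*, a MAX partner, rose by 2.78, *Sapcd2*, a regulator of spindle orientation, by 2.77, and *Spag5*, the spindle protein astrin, by 2.16. *Sapcd2* passed the filter on low TPM only with the day 5 libraries and therefore had to be high there. *Lmnb1*, a nuclear lamin, rose by 1.65, from 4.68 to 6.01 TPM at day 1 to 14.9 to 22.9 TPM at day 5. *Stmn1*, the microtubule-destabilising stathmin, rose by 1.00, and *Ezh2*, a histone methyltransferase, by 0.84, the latter in only 4 of 13 fits that left out 1 library each. *Lgals1*, galectin-1, rose by 0.66, from 87.0 to 113 TPM at day 1 to 144 to 181 TPM at day 5.

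A few genes were already high at day 1 and rose further. Of 13 genes called at day 1 against control, 3 were also called between the days, against 1.81% of all tested genes. Both contrasts share the day 1 libraries, so this is a description. The first 2 given here were picked after their values were seen. *Cdsn*, which encodes corneodesmosin (chromosome 17, 35863025 to 35868077), had TPM of 0.144 to 0.191 in controls, 1.20, 1.37, 1.26 and 0.752 at day 1 and 2.94, 3.17, 2.33 and 2.35 at day 5. Its log2 difference was 1.32 between day 1 and control (adjusted p = 0.0271, limma) and 0.96 between the days (standard error 0.21, adjusted p = 0.0291, limma). *Lrtm2*, a leucine-rich repeat membrane protein gene, had TPM of 2.13 to 3.33 in controls, 6.26, 8.24, 6.4995 and 5.58 at day 1 and 13.2, 12.2, 10.9 and 11.1 at day 5. It rose by 0.79 between the days (standard error 0.16, adjusted p = 0.0184, limma). *Cdsn* passed in 7 and *Lrtm2* in 9 of 13 fits that left out 1 library each. *Cdsn* met the filter on low TPM only with the day 5 libraries and therefore had to be high there. The third gene was *Pvalb*, which moved in the other direction. Of the day 1 calls that did not differ between the days, *Lypd1*, *Vash1*, *Cdc42bpg*, *Pals1* and *Dynll2* were also called lower at day 5 against control. *Egr1*, *Tnfrsf12a*, *Maff* and *Gm14288* were also called higher there, and *Fosb* was not called.

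The number of genes that fell depended on the libraries used. It was 57 in the fit of all 13 libraries, against 202 that rose, but 228 against 195 that rose when the 8 day 1 and day 5 libraries were fitted alone. Of the 57, 31 lay farther from control at day 1 than at day 5, with a median log2 difference of 0.65 at day 1 and -0.28 at day 5 against control. The other 26 lay farther from control at day 5, with medians of -0.05 and -0.81. Only 8 of the 57 stood in any list, and 2 of the 57 passed the filter on low TPM only with the day 1 libraries. All 64 tested tubule markers had a negative difference, with a median of -0.73 over 36 proximal tubule genes and of -0.77 over 28 genes of the loop, distal tubule and collecting duct. Of these markers 6 were called, 5.56% of the proximal and 14.3% of the other list, against 0.398% of all genes called lower. At day 1 against control the same medians were 0.73 and 0.62. With a tubular marker score as a covariate 5 genes were lower at day 5 in place of 57, of which 2 were among the 57. Since the summed markers of both tubule lists separate the day 1 from the day 5 libraries completely, the score and the day cannot be told apart within these 8 libraries. Leaving out 1 library moved the count to between 16 (without day 1 replicate 4) and 217 (without control replicate 5).

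*Pvalb*, the calcium-binding parvalbumin of the distal convoluted tubule (chromosome 15, 78075314 to 78091149), had TPM of 40.7, 32.7, 28.9 and 54.2 at day 1 and 15.3, 14.2, 10.7 and 18.3 at day 5. Controls lay between 9.13 and 18.6, so day 1 was above both other groups. The difference between the days was -1.38 (standard error 0.25, adjusted p = 0.00846, limma). *Calb1*, the distal tubule calcium buffer calbindin (chromosome 4, 15881155 to 15908085), followed this pattern, with 29.3, 39.0, 25.7 and 44.2 TPM at day 1, 19.5, 7.16, 10.2 and 18.03 TPM at day 5 and 7.68 to 16.2 TPM in controls. It fell by 1.39 on the log2 scale. *Defb1*, an epithelial defensin of the distal nephron, fell by 1.30, and *Rhcg*, the ammonia channel of the collecting duct, fell by 1.33. *Aqp2*, the water channel of principal cells, fell by 1.30 from 19.8, 13.9, 9.72 and 18.9 TPM to 4.09, 7.05, 8.34 and 4.86 TPM, and 3 of its day 5 values lay below the control range of 7.62 to 16.5. The summed TPM of the loop, distal and collecting duct markers was 1278, 1162, 1055 and 1714 at day 1 and 752, 813, 857 and 979 at day 5. It moved with these genes, 4 of which are members of the list, and its part in them was not tested. *Pvalb* passed in all 13 fits that left out 1 library each, *Calb1* in 8, *Aqp2* in 7, *Rhcg* in 6 and *Defb1* in 5.

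Genes of the proximal tubule were among the genes that fell. *Acy3*, an aminoacylase, had TPM of 492, 474, 302 and 421 at day 1 and 196, 185, 232 and 206 at day 5 (difference -1.03, standard error 0.21, adjusted p = 0.0192, limma). Day 1 replicate 3, the day 1 library with the lowest proximal tubule sum, was also the lowest for *Acy3*, for *Slc51a*, a subunit of an organic solute transporter, and for *Ggt1*, the brush border enzyme that splits glutathione. *Ggt1* is a member of the summed list, so its match is partly built in. Of the genes given next, *Odc1* was also lowest there, but *Cyp2a5* and *Cyp4b1* had their lowest day 1 values in other libraries. A link to the tubule sum was not tested. *Slc51a* fell by 1.31, from 21.6, 22.2, 11.04 and 15.6 TPM to 6.33, 5.78, 8.19 and 6.24 TPM. *Ggt1* fell by 0.98 from 153, 148, 112 and 145 TPM to 68.3, 69.7, 77.7 and 67.0 TPM, and passed in 4 of 13 fits that left out 1 library each, *Acy3* in 7 and *Slc51a* in 6. *Odc1*, the rate-limiting enzyme of polyamine synthesis, fell by 0.88, and *Cyp2a5*, a cytochrome P450, by 1.37, and each passed in 8 of 13 such fits. *Cyp2a5* has a near-identical neighbour, *Cyp2a4*, so the split of reads between them is uncertain. *Cyp4b1*, another cytochrome P450, had the highest level of all genes that fell, with 999.6, 1023, 998 and 881 TPM at day 1 and 673, 632, 638 and 571 TPM at day 5 (difference -0.64, standard error 0.11, adjusted p = 0.00453, limma), and passed in all 13 such fits. Its controls, at 771 to 1073 TPM, held every day 1 value, and all its day 5 values were below them, so it was 1 of the 26 genes farther from control at day 5. With the tubular score as a covariate the differences were -0.21 for *Ggt1*, -0.38 for *Acy3*, -0.46 for *Slc51a*, -0.54 for *Odc1*, -0.56 for *Cyp4b1* and -1.04 for *Cyp2a5*, and none was called (adjusted p between 0.147 and 0.731, limma). *Ggt1* and *Cyp4b1* are themselves members of the marker lists behind that score, so part of their adjustment was built in.

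*Tfrc*, the transferrin receptor that takes up iron (chromosome 16, 32427556 to 32451612), passed alone among 14 iron-handling genes (7.14%, against 1.81% of all genes). Its TPM was 11.2, 13.9, 9.48 and 16.5 at day 1, 3.03, 5.42, 5.71 and 5.62 at day 5 and 5.99 to 11.1 in controls. All day 5 libraries were below all controls, and the difference was -1.31 (standard error 0.23, adjusted p = 0.00837, limma). With the tubular score as a covariate its adjusted p was 0.300 (limma).

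**Figure D4:**
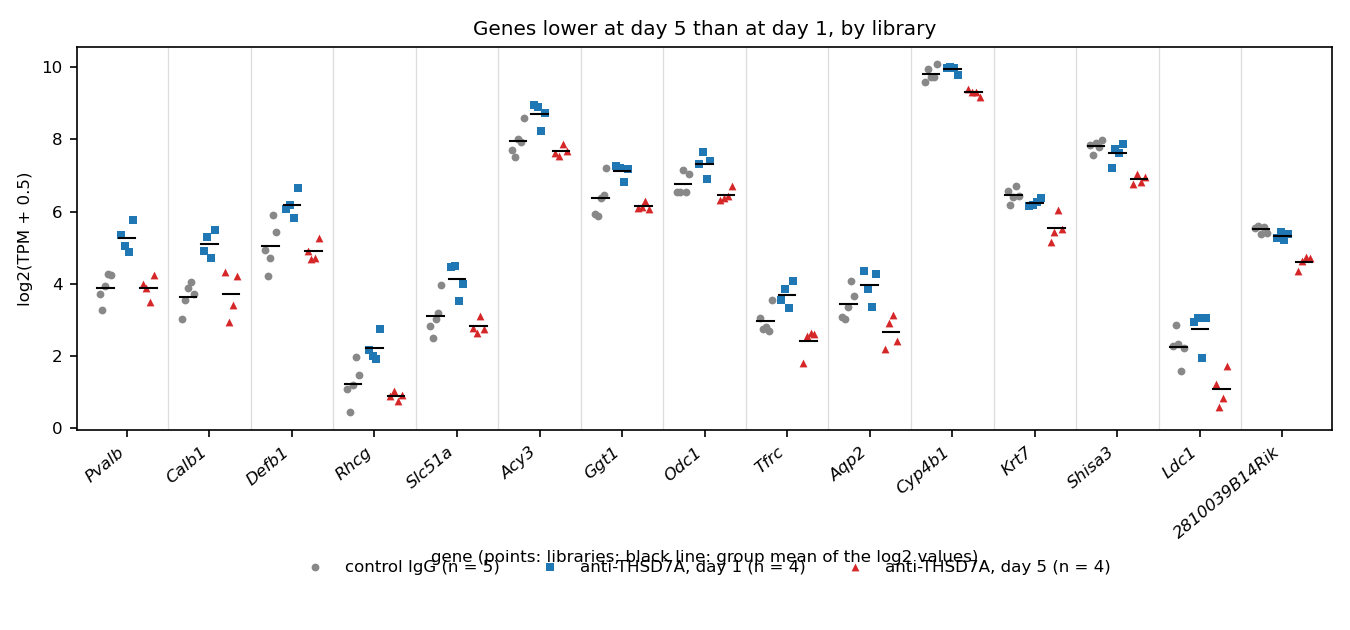
Levels of 15 genes called lower at day 5 (vertical axis, log2 of TPM + 0.5), with 1 point per library for control, day 1 and day 5 mice and a black line at each group mean. For *Pvalb* and *Calb1* the day 1 points stand above the controls, whereas for *Krt7*, *Shisa3* and *2810039B14Rik* the day 5 points stand below them.

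In a second group day 1 lay near control level and day 5 below it. *Krt7*, a keratin of simple and parietal epithelium (chromosome 15, 101308924 to 101328194), had TPM of 71.3, 72.1, 76.4 and 82.7 at day 1 and 34.9, 42.9, 65.4 and 44.9 at day 5, against 71.9 to 104.3 in controls. The difference was -0.72 (standard error 0.14, adjusted p = 0.0159, limma), and *Krt7* passed in 9 of 13 fits that left out 1 library each. It passed alone among 17 parietal epithelial markers (5.88%, against 1.81% of all genes). *Shisa3*, an adaptor that holds Wnt and FGF receptors back, had TPM of 147, 209.8, 197 and 235 at day 1 and 109, 131, 112 and 123 at day 5 (difference -0.72, standard error 0.13, adjusted p = 0.00923, limma). *2810039B14Rik*, a transcribed unitary pseudogene (chromosome 15, 75515335 to 75518816), had TPM of 38.1, 42.4, 36.8 and 40.8 at day 1 and 20.1, 24.1, 26.5 and 25.8 at day 5, against 41.1 to 48.4 in controls. Its difference of -0.72 (standard error 0.08, adjusted p = 1.88e-04, limma) passed in every alternative run, the tubular covariate included (adjusted p = 0.0120, limma).

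*Kifc2*, a minus-end kinesin, was the other gene of the 57 called with the tubular covariate. It fell by 0.52, from 8.29, 9.48, 10.3 and 8.82 TPM to 6.26, 6.70, 6.18 and 6.19 TPM. Like the pseudogene before it, it was picked after its values were seen, as were *Top1mt*, the mitochondrial topoisomerase (-0.58), *F8*, coagulation factor VIII made by endothelium (-0.53), and *Mgat5b*, a glycosyltransferase (-1.22). Of 13 fits that left out 1 library each, *Kifc2* passed in 9, *F8* in 7, *Mgat5b* in 5 and *Top1mt* in 4. *Mgat5b* had TPM of 9.41 to 15.1 in controls, 6.70, 4.43, 4.95 and 12.6 at day 1 and 2.49, 2.45, 3.87 and 1.78 at day 5. The largest negative differences of all belonged to genes with low TPM. *Gm49744* (-2.29) and *Gm15481* (-1.91) are processed pseudogenes, so reads of their parent genes could be assigned to them. *Gm15481* passed the filter on low TPM only with the day 1 libraries and therefore had to be high there. *Gm36368* (-1.91) and *Ldc1* (-1.66) completed the leading group. *Gm36368* was listed at 0 in 3 of 4 day 5 libraries and passed in 4 of 13 such fits, *Ldc1* in 9.

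Immediate-early genes, cytokines and immune cell markers held no call between the days. Limma called no immediate-early or AP-1 gene, 5 of 44 had an unadjusted p under 0.05 against 15.5% of all genes, and 22 lay on each side of 0. *Fosb*, an AP-1 subunit and the list's lowest p, had TPM of 0.499 to 1.06 in controls, 2.49, 1.87, 2.06 and 3.76 at day 1 and 1.17, 0.849, 1.20 and 1.46 at day 5. The groups were separate, but the difference of -0.85 stayed above the threshold (limma, standard error 0.23, adjusted p = 0.0789). Against control *Fosb* was called at day 1 (difference 1.37, adjusted p = 0.0395, limma) and not at day 5 (0.51, adjusted p = 0.212, limma). *Mt1*, metallothionein 1 and a glucocorticoid target, had TPM of 249, 231, 221 and 226 at day 1 and 164, 154, 164 and 195 at day 5. Its difference of -0.47 (adjusted p = 0.00251, limma) was under the size needed for a call. Limma also called no gene of NF-kB feedback, where 1 of 23 had an unadjusted p under 0.05, of chemokines and cytokines (1 of 19), of interferon-stimulated genes (9 of 42), of mononuclear phagocyte markers (5 of 28), of neutrophil and lymphocyte markers (0 of 8) or of blood and platelet markers (4 of 10). The share over all genes was again 15.5%.

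Of the 42 interferon-stimulated genes, 38 lay above 0, with a median of 0.17, and of the 28 phagocyte markers 23 did, with a median of 0.31. *Rsad2*, the antiviral enzyme viperin, had TPM of 28.0, 19.98, 13.5 and 20.6 at day 1 and 26.6, 39.998, 31.8 and 30.5 at day 5, and the groups overlapped (difference 0.66, adjusted p = 0.109, limma). *Cd74*, the invariant chain of antigen-presenting cells, had TPM of 34.8, 23.9, 24.98 and 25.8 at day 1 and 34.0, 41.1, 43.0 and 33.7 at day 5, also with overlap (difference 0.46, adjusted p = 0.112, limma). Summed TPM of the phagocyte markers lay between 328 and 401 at day 1 and between 368 and 424 at day 5. *Hbb-bs*, a beta-globin gene with near-identical copies, had TPM of 94.2, 115, 45.5 and 38.8 at day 1 and 88.1, 141, 193 and 199.7 at day 5. Its difference of 1.14 did not pass (adjusted p = 0.131, limma).

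**Figure D5:**
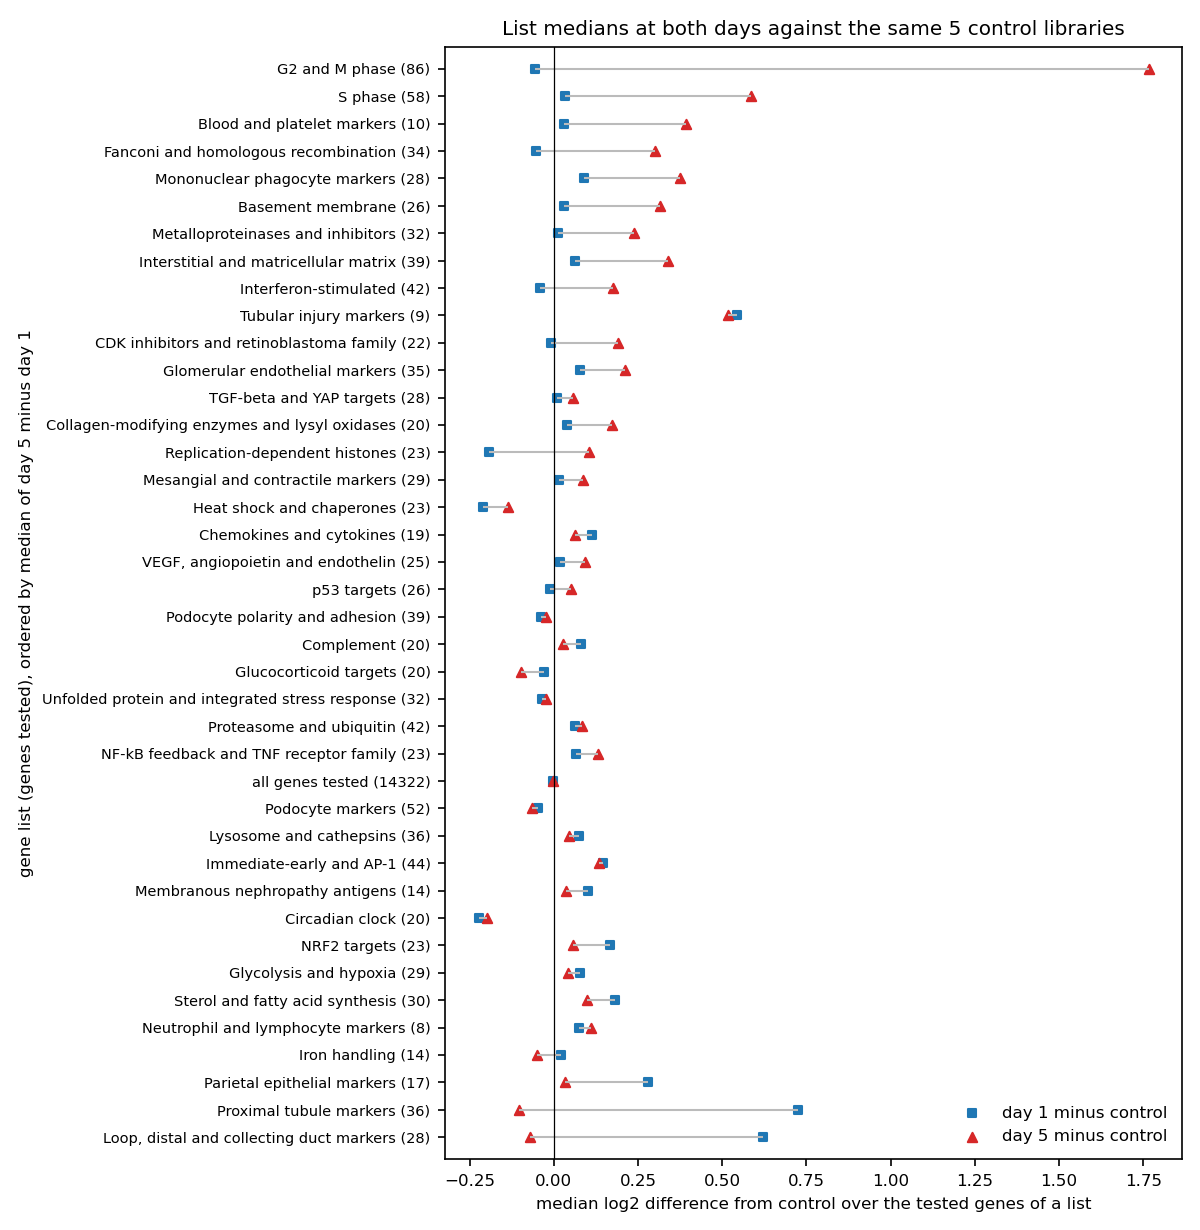
Median log2 difference from control at day 1 (blue squares) and day 5 (red triangles) over the tested genes of each of 39 lists and of all genes (rows, with the number tested). Both days share the 5 control libraries. The G2 and M phase list reaches 1.77 at day 5 from -0.06 at day 1, and the tubule lists stand at 0.73 and 0.62 at day 1 and near 0 at day 5.

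None of the lists for the unfolded protein response, heat shock, NRF2 targets, glycolysis and hypoxia, sterol synthesis, the circadian clock, glucocorticoid targets, the proteasome, lysosomes, replication-dependent histones, glomerular endothelial markers, VEGF and endothelin signalling, TGF-beta and YAP targets or the antigens of membranous nephropathy held a called gene. The share of members at an unadjusted p under 0.05 (limma) lay between 2.38% (proteasome, 1 of 42) and 24% (VEGF and endothelin, 6 of 25), against 15.5% of all genes. It was also above that for NRF2 targets (5 of 23, 0 of them higher) and endothelial markers (7 of 35, 7 of them higher). Medians of these lists lay between -0.08 (sterol synthesis) and 0.14 (endothelial markers). In these lists a miss of the thresholds does not show that levels were equal at both days. *H2ac15*, a histone H2A gene that the histone list did not hold, was called higher by 1.81 (adjusted p = 0.0353, limma) and was picked after its values were seen. Its mean TPM was 0.344 in controls, 0 at day 1 and 1.31 at day 5, so it could pass the filter on low TPM only with the day 5 libraries.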

How the data were processed

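Glomerular RNA was sequenced from 5 control, 4 day 1 and 4 day 5 mice. Per the labels, the authors processed reads with FastQC 0.11.9, Trimmomatic 0.39 and kallisto 0.46.2 on GRCm39, and they deposited TPM, 1 value per gene symbol and library, with no read counts used here. The depth behind each value is therefore unknown, and no counting interval was given. TPM correct for transcript length and library total only, so a rise of abundant genes lowers the rest.

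Groups came from the sample labels. Libraries were scaled by median-of-ratios factors from the 15772 genes above 0 throughout, 0.5 was added and log2 taken. Genes reaching TPM 1 in 4 or more libraries were fitted with limma 3.58.1 in R 4.3.3 (3 groups, 13 libraries, eBayes with trend), with Benjamini-Hochberg adjustment over all 14322 genes. The procedure was tested on simulated data. Plots used matplotlib 3.10.9 in Python 3.11.15. Gene positions are from GENCODE for GRCm39, and promoters from RefSeq for GRCm38.p6. That is another build, so promoter coordinates do not compare with gene positions.

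The comparison, the 39 gene lists and the rule for naming genes were chosen with earlier results of these data known. The rule took the 12 largest differences in each direction among called genes with separate groups, the 5 called genes of highest level in each direction, up to 6 called genes per list of lowest adjusted p, otherwise the list's genes of highest level and lowest p, and *Thsd7a*. Not all of these are printed. Alternatives covered pseudocounts, scaling, filters, the eBayes trend, the libraries fitted, a replicate block, array weights, marker scores as covariates and leaving out each library.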

Additional observations from a re-analysis of the deposited data

Results flagged for a closer look

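Levels differed between day 5 and day 1 of the antibody for 259 genes by the test of the difference itself, those described above. Day of collection and time after injection cannot be told apart. In addition, 16 values stood apart from the other libraries of their group by Dixon's criterion, of 264 groups of values checked, and chance alone flags about 1 in 20.

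Day 1 replicate 4 was above the other day 1 libraries for *Ccna2* (TPM 1.85 against 0.950 to 1.05), *Tagln* (208 against 168 to 172) and *Dag1* (332 against 285 to 291). Day 5 replicate 3 was above its group for *Tk1* (TPM 29.1 against 21.6 to 22.6) and *Ube2t* (10.04 against 4.77 to 5.21). *Crct1* was listed above 0 in a single day 1 library (TPM 0.549) and a single control (0.206), and *Cdkn2a* in a single day 1 library (0.263). *Rad54b* stood at a TPM of 1.04 in control replicate 2, against 0.430 to 0.520 in the other controls. Day 1 replicate 1 was above its group for *Cd74*, at 34.8 against 23.9 to 25.8.

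*Ldc1* was low in day 1 replicate 3 (TPM 3.36 against 7.18 to 7.87), *Tfrc* was low in day 5 replicate 1 (3.03 against 5.42 to 5.71), and *Kifc2* was high in day 5 replicate 2 (6.70 against 6.18 to 6.26). *Gm36368* was listed above 0 in 1 day 5 library, at 0.324. Control replicate 5 stood apart in the summed TPM of proximal tubule markers, at 13525 against 4649 to 6825, and control replicate 2 in that of podocyte markers, at 18040.3 against 21786 to 23099.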

How the results depend on the processing

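The count of rising genes lay between 178 and 260 under 12 alternatives but was 109, of 153 in all, with a filter on all 13 libraries, where 87 of the 202 rising genes were not tested, and 122, of 127 in all, once a score of tubular markers was fitted as a covariate. In that fit 103 of the 202 rising genes were still called, 54 of 86 G2 and M phase genes among them. The count of falling genes moved more. It was 27 with no filter on low TPM and again 27 with a leukocyte marker score as a covariate, 98 with array quality weights, 228 of 423 with the 2 antibody groups alone in the fit, and 5 with the tubular score. The share of calls that were higher, 78.0% in the reported fit, was 46.1% with the 2 antibody groups alone and 96.1% with the tubular score. With that score the difference of *Thsd7a* changed sign, to 0.0333 (adjusted p = 0.985, limma; 0.140 to 0.985 over its alternatives).

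Leaving out 1 library at a time gave between 150 and 437 calls, between 132 and 220 higher and between 16 and 217 lower. The total fell to 164, 150 and 160 without day 5 replicates 1, 2 and 3, where 30 or 31 rising genes no longer passed the filter, and the rising genes to 132 and 134 without day 5 replicates 2 and 3. The falling genes numbered 217 and 97 without control replicates 5 and 2, then 27, 23, 90 and 16 without day 1 replicates 1 to 4, and 22, 18, 26 and 36 without day 5 replicates 1 to 4. Among 75 of the called genes named in the text, between 0 and 25 were tested and lost the call when 1 library was left out, most without day 5 replicate 2. In that fit 43 of the 75 kept the call, and the rest no longer passed the filter and were not tested.

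Replicate numbers were not a pairing. Deviations of same-numbered day 1 and day 5 libraries correlated at -0.0563, 0.00751, -0.00167 and -0.0349, and no day 1 library correlated best with its own number. With the replicate block 182 genes were higher and 149 lower. The cause of these shifts was not tested. Depth is unknown, so values near TPM 0 carry an unstated counting error.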
